A study of Mus musculus with 15 samples.

Results

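The genes described here are 35 genes of sterol metabolism, chosen by name for their roles. They cover cholesterol synthesis, its control by sterol regulatory element-binding proteins (SREBPs), fatty acid synthesis, lipoprotein handling, efflux, storage and clearance. All 35 were present among the 53278 gene symbols of the deposited count table, and all 35 passed the filter on low counts, as did 18369 genes in all. Read counts per gene came from bulk RNA sequencing of brain cortex of 15 male C57BL/6J mice aged 10 to 20 weeks. The 5 mice of the PLX3397 group received PLX3397 in their food over 9 days. The 5 mice of the repopulation group had the same 9 days of PLX3397, followed by another 9 days of food without it. The 5 control mice ate control food. PLX3397 is an inhibitor of CSF1R, the receptor that microglia need to survive, and it acts on the whole animal. The labels name no transgene and no further treatment, and each library is 1 mouse.

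The brain makes its own cholesterol, because lipoproteins of the blood do not cross the blood-brain barrier. Synthesis runs from acetyl-CoA through mevalonate and farnesyl diphosphate to squalene, which is closed to lanosterol and trimmed to cholesterol. Oligodendrocytes use much of it for myelin, and astrocytes pass cholesterol to other cells on particles that carry apolipoprotein E. When sterol in the endoplasmic reticulum runs low, the escort protein SCAP carries SREBPs to the Golgi for cleavage, and the cleaved SREBPs switch on the synthesis genes. When sterol is high, oxysterols activate the liver X receptors (LXRs), which switch on the exporters ABCA1 and ABCG1. Microglia that take up myelin debris depend on this export.

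Library totals ran from 23413551 to 29482140 counts on PLX3397, from 26837517 to 29582274 after repopulation and from 24347802 to 48617851 in control, and the least abundant member in any library rested on 52 reads. The summed level of 8 microglial markers was 13.6 to 17.4 CPM on PLX3397, 306 to 343 CPM after repopulation and 279 to 312 CPM in control, where CPM is a gene's count scaled to library size with TMM factors. The 8 neuronal markers that check the labelled tissue summed to 8065 to 9143 CPM on PLX3397, 8038 to 8524 CPM after repopulation and 8220.5 to 9099 CPM in control. Transcripts of the choroid plexus, a neighbouring tissue, stood apart in 4 libraries. Their 6 markers summed to 85.2 CPM in PLX3397 mouse 1, 215 CPM in PLX3397 mouse 2, 112 CPM in PLX3397 mouse 3 and 551 CPM in repopulation mouse 4, against 8.83 to 24.9 CPM in the other 11. Counts of members led with below are also given without the 3 highest of these, called the 3 libraries rich in choroid plexus transcripts, and without all 4, which leaves 2 PLX3397 libraries. Both alternatives were chosen after seeing the data. Markers of the striatum, which lies under the cortex, summed over 6 genes to 676 to 898 CPM on PLX3397, 575 to 1010.4 CPM after repopulation and 575 to 877 CPM in control. Repopulation mice 2 and 5 stood at 859 and 1010.4 CPM and the other 3 repopulation mice at 575 to 619 CPM. By edgeR, 0 of the 6 were called in any comparison, and 0 had an unadjusted p under 0.05. The part of striatal tissue in the members' values was not tested.

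**Figure D1:**
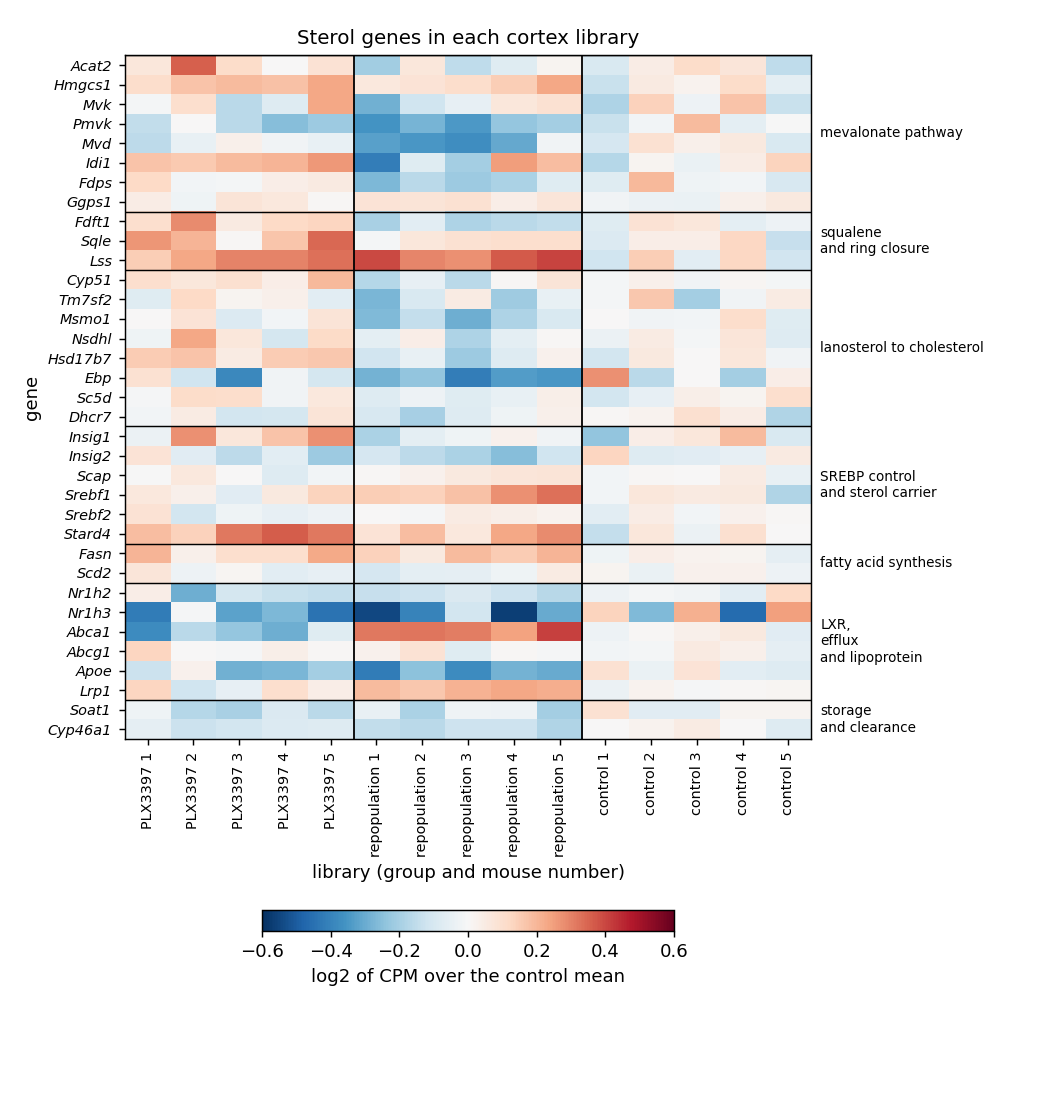
Log2 of CPM over the control mean for the 35 sterol genes (rows, grouped by role) in 15 cortex libraries (columns). Abca1 is blue in all 5 PLX3397 libraries and red in all 5 repopulation libraries, and Lss is red in both groups.

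Levels between genes were set side by side per exon length, in TPM over annotated genes. Apoe, the main lipoprotein protein of the brain, stood highest in control at 1483 ± 77.1 TPM (SD, n = 5), followed by Scd2, a fatty acid desaturase, at 1076 ± 25.1 TPM. Next came Cyp46a1, the neuronal hydroxylase that turns cholesterol into a form that can leave the brain, at 309.7 ± 9.71 TPM, and Hmgcs1, an early synthesis enzyme, at 229.7 ± 16.0 TPM. Srebf2, Lrp1 and Fasn lay close together at 162 ± 5.40, 156 ± 3.02 and 140.1 ± 3.92 TPM. The lowest member was Nr1h3, which encodes LXR alpha, at 5.10 ± 1.04 TPM, while Nr1h2, which encodes LXR beta, stood at 67.1 ± 3.28 TPM. Among the other synthesis enzymes, control levels ran from 8.63 ± 0.691 TPM for Idi1 to 71.1 ± 3.46 TPM for Fdft1.

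Differences between groups were small next to the loss of microglial transcripts, with log2 fold changes of the members between -0.38 and 0.54. On PLX3397, 6 of the 35 members were called higher than in control and 3 lower, where 8.19% of all tested genes were called higher and 8.35% lower. After repopulation, 7 members were higher than in control and 9 lower, against 13.9% and 15.2% of all tested genes. Between repopulation and PLX3397, 3 members were higher after repopulation and 7 lower, against 7.61% and 8.98%. Without the 3 libraries rich in choroid plexus transcripts the counts were 5 higher and 3 lower (against 6.11% and 6.68% of all 18735 genes then tested), 6 and 8 (12.3% and 14.3%), and 1 and 5 (4.05% and 3.29%) for these comparisons in turn. Without all 4, they were 5 and 2 (5.73% and 6.56% of 19181 genes), 6 and 9 (12.3% and 14.5%), and 1 and 2 (3.07% and 1.36%). The median log2 fold change of the members was 0.03, -0.05 and -0.09 in that order, and that of all tested genes lay within 0.01 of 0. The 3 comparisons share libraries, so that each group enters 2 of them. A gene is called here at an edgeR quasi-likelihood p of under 0.05 after Benjamini-Hochberg adjustment over all 18369 genes, and a value printed with an adjusted p is a log2 fold change of the first group named over the second. Libraries of the groups compared did not overlap for 4 higher and 1 lower members on PLX3397 against control (4.99% and 5.38% of all tested genes). For repopulation these numbers were 5 and 7 against control (10.5% and 11.8%) and 3 and 4 against PLX3397 (5.57% and 6.24%). In bulk tissue, fewer cells of a type and less RNA per cell cannot be told apart.

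**Figure D2:**
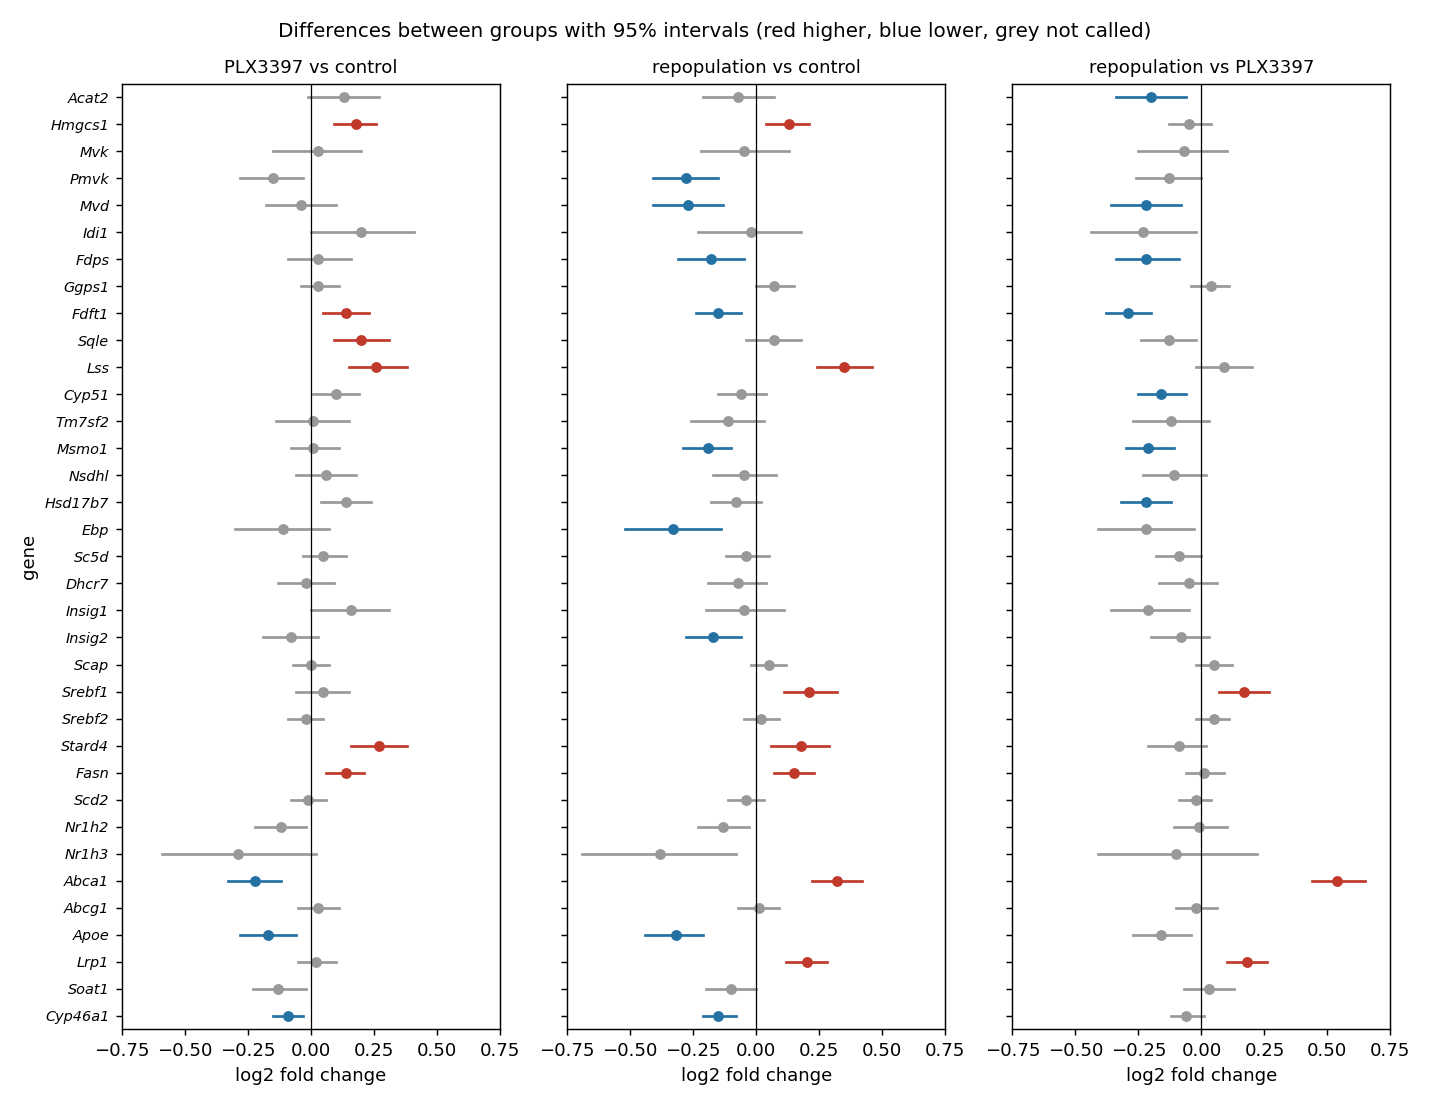
Log2 fold changes of the 35 genes with their 95% confidence intervals in the 3 comparisons, from the edgeR fit of all 15 libraries. Abca1 lies left of 0 on PLX3397 (-0.22) and right of 0 after repopulation against control (0.32) and against PLX3397 (0.54).

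On PLX3397, 4 of 19 enzymes grouped under cholesterol synthesis were called higher than in control and 0 lower (8.19% and 8.35% of all genes). Their median log2 fold change was 0.05, and Ggps1, which serves a branch to other isoprenoids, is among the 19. After repopulation 2 were higher and 6 lower than in control (median -0.07), against 13.9% and 15.2% of all genes. Between repopulation and PLX3397, 0 were higher and 7 lower (median -0.13), against 7.61% and 8.98% of all genes. In that comparison 17 of the 19 had a negative log2 fold change. Without the 3 libraries rich in choroid plexus transcripts, the enzyme counts were 3 higher and 1 lower, 1 and 5, and 0 and 5 in turn (the shares of all genes at that setting are given above), and the lower one on PLX3397 was Pmvk (-0.21, adjusted p = 0.0494). Without all 4 such libraries they were 3 and 0, 1 and 5, and 0 and 2, with 17 of the 19 still negative between repopulation and PLX3397. Each call of an enzyme reported below as lost without the 3 libraries was lost without the 4 as well. Markers of other cell types moved in these comparisons too. Of 10 myelin and oligodendrocyte markers, 8 were higher on PLX3397 than in control, 2 were lower after repopulation than in control, and all 10 were lower after repopulation than on PLX3397. Their summed level was 5649 to 6864 CPM on PLX3397, 4774 to 5735 CPM after repopulation and 5282 to 5559.6 CPM in control, and no marker was at 0 in any group. Of 6 oligodendrocyte precursor markers, 5 were lower on PLX3397 than in control, with sums of 76.7 to 126 CPM on PLX3397, 173 to 188 CPM after repopulation and 167 to 206 CPM in control. Between repopulation and PLX3397, 4 precursor markers were higher and 0 lower. Astrocyte markers had 1 of 8 higher on PLX3397 than in control, 2 of 8 lower after repopulation than in control, and 4 of 8 lower after repopulation than on PLX3397. Their summed level was 4215 to 4580.2 CPM on PLX3397, 4166 to 4267 CPM after repopulation and 4261 to 4517 CPM in control. Of the 8 neuronal markers, 1 was called higher and another 1 lower with PLX3397 against control. After repopulation 3 of the 8 were higher and 3 lower against control, and 0 were higher and 2 lower against PLX3397. Of 5 endothelial markers, 3 were lower on PLX3397 than in control. After repopulation 1 was higher and 2 were lower than in control, and 2 were higher than on PLX3397. The part of these cell types in the enzyme differences was not tested.

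All 3 enzymes that build squalene and close it were higher on PLX3397 than in control. Lss, the synthase that closes squalene epoxide to lanosterol, had 45.8, 48.6, 50.8, 50.8 and 52.0 CPM on PLX3397, 54.4, 50.6, 49.9, 53.4 and 54.8 CPM after repopulation and 38.0, 45.8, 39.5, 45.1 and 38.2 CPM in control. Every repopulation library lay above every control library, and so did the PLX3397 libraries, the lowest of which met the highest control library at the same rounded value. The log2 fold change was 0.26 (SE 0.05, adjusted p = 0.0011) on PLX3397 and 0.35 (SE 0.05, adjusted p = 2.60e-05) after repopulation, both against control, and 0.09 (SE 0.05, adjusted p = 0.309) between repopulation and PLX3397. Sqle had 71.7, 68.7, 60.1, 67.0 and 75.8 CPM on PLX3397, 59.2, 62.6, 63.7, 64.1 and 64.1 CPM after repopulation and 56.4, 61.5, 61.4, 65.1 and 54.3 CPM in control. Sqle, which encodes squalene epoxidase, was called on PLX3397 (0.20, SE 0.05, adjusted p = 0.0108) with overlapping libraries, and after repopulation its difference from control was 0.07 (adjusted p = 0.346). Between repopulation and PLX3397 Sqle was not called (-0.13, SE 0.05, adjusted p = 0.105). There it was called lower without the filter on low counts (0.0441), without PLX3397 mouse 3 (0.0199) and without the 3 libraries rich in choroid plexus transcripts (0.0412). Fdft1 had 76.6, 86.8, 74.1, 77.6 and 77.9 CPM on PLX3397, 62.3, 68.3, 62.7, 63.7 and 64.3 CPM after repopulation and 67.8, 75.8, 74.9, 68.4 and 69.8 CPM in control. Fdft1 encodes squalene synthase, the first enzyme committed to sterols. It was higher on PLX3397 (0.14, SE 0.04, adjusted p = 0.0317) and lower after repopulation than in control (-0.15, SE 0.04, adjusted p = 0.0126), and all 5 repopulation libraries lay below all 5 PLX3397 libraries (-0.29, SE 0.04, adjusted p = 4.26e-05). The call of Fdft1 on PLX3397 was lost without control mouse 1 (adjusted p = 0.0925), 4 (0.0746) or 5 (0.0677) or without PLX3397 mouse 2 (0.1), and without the 3 libraries rich in choroid plexus transcripts (adjusted p = 0.131). Exons of Fdft1 share 774 bp with Ctsb on the opposite strand. Ctsb, a lysosomal protease gene, was at 504 CPM on PLX3397, 462 CPM after repopulation and 526 CPM in control. Like Fdft1, Ctsb was lower after repopulation than in control (-0.19, adjusted p = 0.000129) and than on PLX3397 (-0.13, adjusted p = 0.00915). On PLX3397 its difference from control was -0.06 (adjusted p = 0.229). The use of strand in counting is not given in the sources used here, and the part of Ctsb reads in the Fdft1 counts was not tested.

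Of the 8 genes of mevalonate steps, on PLX3397 1 was called higher than in control and 0 lower (8.19% and 8.35% of all genes). After repopulation 1 was higher and 3 were lower than in control (13.9% and 15.2%). Between repopulation and PLX3397, 0 were higher and 3 lower (7.61% and 8.98%). Hmgcs1 had 269.8, 282, 286, 283 and 294 CPM on PLX3397, 262, 265, 269, 277 and 294 CPM after repopulation and 228, 260.0, 254, 269.9 and 240.3 CPM in control. Hmgcs1, the cytosolic HMG-CoA synthase that feeds mevalonate, was higher on PLX3397 (0.18, SE 0.04, adjusted p = 0.00365) and after repopulation (0.13, SE 0.04, adjusted p = 0.0194) than in control. In both cases the ranges overlapped, with control mouse 4 inside them, and the call after repopulation was lost without control mouse 1 (adjusted p = 0.0953), control mouse 5 (0.0686) or repopulation mouse 5 (0.0821), and without the 3 libraries rich in choroid plexus transcripts (0.0567). Pmvk had 20.3, 22.5, 20.1, 18.8 and 19.3 CPM on PLX3397, 17.5, 18.5, 17.7, 19.1 and 19.5 CPM after repopulation and 20.5, 22.2, 25.6, 21.6 and 22.4 CPM in control. Pmvk, the phosphomevalonate kinase, had every repopulation library below every control library (-0.28, SE 0.06, adjusted p = 0.00116), and was at -0.15 (adjusted p = 0.0945) on PLX3397. Mvd, the mevalonate diphosphate decarboxylase, averaged 16.3 ± 0.751 CPM on PLX3397, 14 ± 1.5 CPM after repopulation and 16.8 ± 0.996 CPM in control (SD, n = 5 each). It was lower after repopulation than in control (-0.27, SE 0.07, adjusted p = 0.0039) and than on PLX3397 (-0.22, SE 0.07, adjusted p = 0.0247). The second of these calls was lost without PLX3397 mouse 3 (adjusted p = 0.0606) or 4 (0.0549) or without repopulation mouse 1 (0.0617), 2 (0.0617), 3 (0.0727) or 4 (0.0569), and without the 3 libraries rich in choroid plexus transcripts (0.219).

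Fdps had 18.7, 17, 17.1, 17.7 and 17.9 CPM on PLX3397, 14.3, 15.4, 14.8, 15.1 and 16.4 CPM after repopulation and 16.4, 19.7, 16.9, 17 and 16.1 CPM in control. Fdps, which makes farnesyl diphosphate at the branch to sterols and to other isoprenoids, was lower after repopulation than in control (-0.18, SE 0.06, adjusted p = 0.0273) and than on PLX3397 (-0.22, SE 0.06, adjusted p = 0.0165), with no overlap in the second case. Control mouse 2 stood above the other controls, and without it the first call was lost (adjusted p = 0.115), as it was without repopulation mouse 1 (0.0756), 3 (0.0523) or 4 (0.0511). The second call was lost without repopulation mouse 1 (adjusted p = 0.0513) and without the 3 libraries rich in choroid plexus transcripts (0.0593, and 0.0504 for the first). Acat2, the thiolase that joins acetyl-CoA units, was lower after repopulation than on PLX3397, at 23.5 ± 1.86 and 27.0 ± 2.68 CPM (-0.20, SE 0.07, adjusted p = 0.0429), and against control it stood at 0.13 (adjusted p = 0.19) on PLX3397 and -0.07 (adjusted p = 0.503) after repopulation. That call was lost without PLX3397 mouse 1 (adjusted p = 0.0501), 2 (0.154) or 3 (0.061), without repopulation mouse 1 (0.126), 3 (0.113) or 4 (0.0807) and without the 3 libraries rich in choroid plexus transcripts (0.403). Idi1, the isomerase of the isoprene units, had 8.08, 8, 8.19, 8.26 and 8.60 CPM on PLX3397 and 6.37, 7.25, 6.99, 7.39 and 7.88 CPM in control, groups without overlap, and was not called (0.20, adjusted p = 0.18). Mvk, the mevalonate kinase, and Ggps1, which makes geranylgeranyl diphosphate for protein prenylation, passed the test in none of the 3 comparisons. The interval of their log2 fold change on PLX3397 was -0.15 to 0.20 for Mvk and -0.04 to 0.11 for Ggps1. Ggps1 serves the branch to other isoprenoids and is counted here among the 19 synthesis enzymes. Between repopulation and PLX3397 it stood at 0.04 (adjusted p = 0.556), 1 of 2 positive values among the 19.

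Of the 8 genes that trim lanosterol to cholesterol, 0 were called on PLX3397 (16.5% of all genes in either direction). Hsd17b7 (0.14, adjusted p = 0.0564) lay nearest to the threshold, with an interval of 0.04 to 0.24. After repopulation 2 were lower than in control (15.2% of all genes) and 3 lower than on PLX3397 (8.98%). All 8 had negative log2 fold changes in both comparisons of the repopulation group. Msmo1 had 71.5, 75.6, 67.4, 70.6 and 75.4 CPM on PLX3397, 59.5, 64.7, 58.3, 62.7 and 67.0 CPM after repopulation and 71.4, 70.4, 70.5, 76.9 and 67.8 CPM in control. Msmo1, the oxidase that starts removal of the methyl groups at ring position C4, was lower after repopulation than in control (-0.19, SE 0.04, adjusted p = 0.00181) and than on PLX3397 (-0.21, SE 0.05, adjusted p = 0.00198), with no overlap in either case. Hsd17b7 had 30.0, 30.4, 27.9, 30.0 and 30.2 CPM on PLX3397, 24.9, 26.2, 23.2, 25.6 and 27.5 CPM after repopulation and 25, 28.1, 27.0, 28.3 and 26.6 CPM in control. Hsd17b7, the reductase of the same demethylation steps, was lower after repopulation than on PLX3397 (-0.22, SE 0.05, adjusted p = 0.00333) without overlap. That call was lost without the 4 libraries with the most choroid plexus transcripts (adjusted p = 0.0686). Its difference from control after repopulation was -0.08 (adjusted p = 0.258). Ebp, a sterol isomerase, averaged 8.93 ± 0.422 CPM after repopulation and 11.2 ± 1.5 CPM in control (-0.33, SE 0.09, adjusted p = 0.00695), again without overlap. Cyp51, the lanosterol demethylase, was lower after repopulation than on PLX3397, at 56.0 ± 4.15 and 62.4 ± 2.56 CPM (-0.16, SE 0.05, adjusted p = 0.0178), a call that was lost without repopulation mouse 1 (adjusted p = 0.0644) or 3 (0.061) and without the 4 libraries with the most choroid plexus transcripts (0.111). Against control, Cyp51 had every PLX3397 library above every control library and was not called (0.10, adjusted p = 0.14). Exons of Cyp51 share 166 bp with Akap9 on the opposite strand. Akap9 was at 0.33 (adjusted p = 0.00555) on PLX3397 against control and 0.02 (adjusted p = 0.893) between repopulation and PLX3397. The part of Akap9 reads in the Cyp51 counts was not tested. Nsdhl, Tm7sf2, Sc5d and Dhcr7, a dehydrogenase, a reductase, a desaturase and the reductase of the last step, passed the test in none of the comparisons, with log2 fold changes between -0.12 and 0.06.

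Promoters are shown for the members called together, to set the letters upstream of these genes beside their values. Each runs from 250 bases before to 50 bases after a start site, 5′ to 3′, from RefSeq on GRCm38.p6. Up to 4 genes with a RefSeq entry were taken by smallest adjusted p from each set of calls used. These sets were the genes higher on PLX3397 than in control and those lower after repopulation than on PLX3397. Calls of repopulation against control were not used for the choice. Lss, Hmgcs1 and Fasn were higher on PLX3397 than in control, Msmo1, Hsd17b7, Cyp51 and Mvd were lower after repopulation than on PLX3397, and Abca1, added after its values were seen, was called in all 3 comparisons. Capitals mark matches to the SREBP element TCACNCCAC or to the NF-Y box CCAAT, a site of the factor that works with SREBPs, searched on both strands, and in Fasn a pair of matches overlap.
Lss, chr10:76531355-76531654, plus strand: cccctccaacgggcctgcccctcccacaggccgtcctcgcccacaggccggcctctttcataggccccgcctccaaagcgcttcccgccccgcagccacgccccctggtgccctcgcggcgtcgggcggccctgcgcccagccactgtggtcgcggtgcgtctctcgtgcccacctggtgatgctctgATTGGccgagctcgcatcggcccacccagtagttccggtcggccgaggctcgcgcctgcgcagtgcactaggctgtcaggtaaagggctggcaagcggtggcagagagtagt
Hmgcs1, chr13:119690101-119690400, plus strand: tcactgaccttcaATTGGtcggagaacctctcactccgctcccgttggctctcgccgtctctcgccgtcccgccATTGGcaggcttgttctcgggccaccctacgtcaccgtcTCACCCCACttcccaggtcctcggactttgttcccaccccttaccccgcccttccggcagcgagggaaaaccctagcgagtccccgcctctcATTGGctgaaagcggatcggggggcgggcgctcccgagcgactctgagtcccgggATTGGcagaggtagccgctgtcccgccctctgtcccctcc
Fasn, chr11:120824498-120824797, minus strand: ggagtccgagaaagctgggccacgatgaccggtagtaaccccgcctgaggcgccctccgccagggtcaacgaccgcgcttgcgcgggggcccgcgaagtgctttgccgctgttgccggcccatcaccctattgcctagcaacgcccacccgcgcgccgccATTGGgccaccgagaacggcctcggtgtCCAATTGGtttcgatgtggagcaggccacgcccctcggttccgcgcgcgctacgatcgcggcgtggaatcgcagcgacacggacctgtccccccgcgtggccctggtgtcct
Msmo1, chr8:64733529-64733828, minus strand: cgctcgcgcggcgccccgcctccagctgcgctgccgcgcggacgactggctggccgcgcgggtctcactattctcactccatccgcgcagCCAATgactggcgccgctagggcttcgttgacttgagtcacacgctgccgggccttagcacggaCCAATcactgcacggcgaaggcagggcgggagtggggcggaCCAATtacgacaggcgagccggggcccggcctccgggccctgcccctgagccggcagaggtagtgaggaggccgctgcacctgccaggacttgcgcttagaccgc
Hsd17b7, chr1:169969156-169969455, minus strand: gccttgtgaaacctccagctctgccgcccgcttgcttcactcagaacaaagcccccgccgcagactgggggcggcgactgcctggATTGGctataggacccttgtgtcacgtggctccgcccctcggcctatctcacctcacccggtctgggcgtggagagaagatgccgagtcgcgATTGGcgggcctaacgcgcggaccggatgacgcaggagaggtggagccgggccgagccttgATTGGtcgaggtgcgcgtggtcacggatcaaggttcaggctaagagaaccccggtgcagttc
Cyp51, chr5:4104648-4104947, minus strand: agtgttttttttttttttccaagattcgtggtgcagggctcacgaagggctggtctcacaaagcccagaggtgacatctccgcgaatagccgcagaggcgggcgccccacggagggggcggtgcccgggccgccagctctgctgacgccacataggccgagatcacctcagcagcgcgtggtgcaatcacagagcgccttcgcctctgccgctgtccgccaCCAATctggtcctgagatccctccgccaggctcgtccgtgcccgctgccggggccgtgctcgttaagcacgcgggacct
Mvd, chr8:122443373-122443672, minus strand: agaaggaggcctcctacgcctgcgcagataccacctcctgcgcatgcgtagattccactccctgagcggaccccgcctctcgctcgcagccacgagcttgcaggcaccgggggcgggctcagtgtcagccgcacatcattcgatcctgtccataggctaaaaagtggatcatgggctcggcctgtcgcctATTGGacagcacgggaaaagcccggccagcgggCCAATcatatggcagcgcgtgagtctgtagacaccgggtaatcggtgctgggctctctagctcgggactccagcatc
Abca1, chr4:53159846-53160145, minus strand: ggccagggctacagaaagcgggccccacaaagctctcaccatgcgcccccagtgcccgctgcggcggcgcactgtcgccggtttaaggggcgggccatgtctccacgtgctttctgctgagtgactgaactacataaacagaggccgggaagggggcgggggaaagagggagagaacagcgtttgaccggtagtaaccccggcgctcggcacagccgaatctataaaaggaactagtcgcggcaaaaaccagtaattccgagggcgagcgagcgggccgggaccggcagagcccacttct

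Of the 35 members, 29 had a promoter in the RefSeq table, 40 promoters in all. Among the 19 synthesis enzymes, 16 had one, and 15 of these 16 genes held at least 1 CCAAT box in either direction, in 15 of 19 promoters. The gene without one was Acat2, which was also called lower after repopulation than on PLX3397 and is not shown. Apart from Abca1, members called only in comparisons or directions not used for the choice are not shown either. Of these, Apoe and Lrp1 held no CCAAT box. Cyp46a1, Ebp, Insig2, Pmvk and Srebf1 each held at least 1 such box. Among the genes of the LXR, efflux and lipoprotein group, 0 of 5 held one, in 0 of 8 promoters. Over all 32851 promoters of that length in the table, 37.4% held a CCAAT box. The TCACNCCAC letters were found in 1.24% of all promoters and in 1 member, Hmgcs1, beginning 137 bases before the start site. The LXR element, a pair of AGGTCA repeats 4 bases apart, was found in 0.0152% of all promoters and in 0 members. For LXRs only this exact repeat was searched, so 0 matches cannot show that the members lack an LXR element with other letters. A pair of imperfect copies of the repeat, 4 bases apart, lies on the opposite strand of the Abca1 and Fasn windows shown. A Srebf1 promoter that is not shown holds such a pair too. How often imperfect copies occur in all promoters was not tested. These matches describe letters, not binding, and a window with no match says only that the letters searched are not in it.

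Of the 6 genes of SREBP control and sterol carriage, on PLX3397 1 was called higher than in control and 0 lower. After repopulation 2 were higher and 1 lower than in control, and 1 was higher and 0 lower than on PLX3397. Of all tested genes, 8.19% were called higher and 8.35% lower, 13.9% and 15.2%, and 7.61% and 8.98% in turn. Stard4 had 39.8, 38.6, 43.7, 45.1 and 43.7 CPM on PLX3397, 37.1, 39.9, 36.6, 41.2 and 42.7 CPM after repopulation and 31.8, 36.7, 34.2, 37.5 and 35.1 CPM in control. Stard4, a soluble carrier that moves cholesterol between membranes, was higher on PLX3397 than in control (0.27, SE 0.06, adjusted p = 0.00127) with no overlap, and higher after repopulation (0.18, SE 0.06, adjusted p = 0.0179) with overlap. The second call was lost without control mouse 1 (adjusted p = 0.0783) or repopulation mouse 5 (0.0649). Srebf1 had 55.5, 54.2, 50.6, 55.3 and 58.2 CPM on PLX3397, 58.8, 58.4, 59.9, 64.2 and 66.6 CPM after repopulation and 52.4, 55.6, 55.1, 55.3 and 46.8 CPM in control. Srebf1, which encodes the SREBP-1 isoforms that drive fatty acid genes, had every repopulation library above every library of the other groups. The log2 fold change was 0.21 (SE 0.05, adjusted p = 0.00198) against control and 0.17 (SE 0.05, adjusted p = 0.0215) against PLX3397. On PLX3397 its difference from control was 0.05 (adjusted p = 0.603). The call against PLX3397 was lost without PLX3397 mouse 3 (adjusted p = 0.068), repopulation mouse 4 (0.0587) or 5 (0.0757) and without the 3 libraries rich in choroid plexus transcripts (0.267). Exons of Srebf1 share 109 bp with Rai1 on the opposite strand. After repopulation Rai1 was at 0.16 (adjusted p = 0.00409) against PLX3397 and 0.03 (adjusted p = 0.55) against control. The part of Rai1 reads in the Srebf1 counts was not tested. Srebf2, which encodes SREBP-2, the main driver of the synthesis genes, had log2 fold changes of -0.02, 0.02 and 0.05 in the 3 comparisons in turn, with an interval of -0.09 to 0.05 on PLX3397. Scap, the escort of the SREBPs, lay within an interval of -0.07 to 0.07 on PLX3397. Insig1 had 60.0, 74.3, 64.5, 69.2 and 74.3 CPM on PLX3397, 53.9, 58.9, 60.4, 62.6 and 60.6 CPM after repopulation and 52.1, 63.1, 64.4, 70.0 and 57.6 CPM in control. Insig1, whose protein holds SCAP back and whose gene SREBPs induce, was not called on PLX3397 (0.16, adjusted p = 0.159), after repopulation (-0.05, adjusted p = 0.672) or between repopulation and PLX3397 (-0.21, adjusted p = 0.063). The last of these was called lower after repopulation by DESeq2 (adjusted p = 0.031), in edgeR without the filter on low counts (0.000164), with the 2 groups alone (0.0202) and without PLX3397 mouse 1 (0.02), control mouse 1 (0.0181) or control mouse 4 (0.033). The difference on PLX3397 was called higher without the filter (0.0104) and without control mouse 4 (0.0461). Insig2, which holds SCAP back as well, was lower after repopulation than in control, at 37.6 ± 1.56 and 42.1 ± 2.67 CPM (-0.17, SE 0.05, adjusted p = 0.0209), without overlap. That call was lost without control mouse 1 (adjusted p = 0.0704) or repopulation mouse 4 (0.062), and without the 3 libraries rich in choroid plexus transcripts (0.0619), but held without all 4.

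Fasn had 419, 372, 391, 390.4 and 427 CPM on PLX3397, 400.5, 379, 416, 405 and 419 CPM after repopulation and 358, 375, 369, 368 and 351 CPM in control. Fasn, the fatty acid synthase, was higher on PLX3397 (0.14, SE 0.04, adjusted p = 0.0127) and after repopulation (0.15, SE 0.04, adjusted p = 0.00311) than in control, in the second case without overlap. It did not differ detectably between repopulation and PLX3397, at 0.01 (SE 0.04, adjusted p = 0.844) with an interval of -0.06 to 0.09. Scd2, the main stearoyl-CoA desaturase of the brain, averaged 1384 ± 54.6 CPM on PLX3397, 1361 ± 53.5 CPM after repopulation and 1396 ± 30.2 CPM in control (SD, n = 5 each), and its intervals against control were -0.08 to 0.06 and -0.11 to 0.03. Where a call of a gene of the further lists ended with length and GC trends taken out, the corrected log2 fold change and adjusted p follow its value. Of 12 further fatty acid genes that SREBPs control, 2 were called higher and 1 lower on PLX3397 (8.19% and 8.35% of all genes). Acly, the citrate lyase that supplies cytosolic acetyl-CoA (0.19, SE 0.04, adjusted p = 0.00363), and Acaca, the carboxylase that makes malonyl-CoA (0.17, adjusted p = 0.0127, and 0.05, adjusted p = 0.416, corrected), were higher. The desaturase gene Fads2 was lower (-0.19, adjusted p = 0.00281, and -0.12, adjusted p = 0.0681, corrected). After repopulation 4 were higher and 1 lower than in control (13.9% and 15.2% of all genes). Acly (0.23, adjusted p = 0.000281), Acaca (0.22, adjusted p = 0.000684, and 0.07, adjusted p = 0.189, corrected) and Gpam, the acyltransferase that starts glycerolipid synthesis (0.19, adjusted p = 0.00412, and 0.13, adjusted p = 0.0512, corrected), were among the higher genes. Between repopulation and PLX3397, Fads2 was higher (0.13, adjusted p = 0.0381, and 0.11, adjusted p = 0.062, corrected), and Me1, which encodes malic enzyme, was lower, at -0.19 (adjusted p = 0.0185). In that comparison 1 of the list was thus called in each direction (7.61% and 8.98% of all genes). The call of Acaca on PLX3397 was lost without PLX3397 mouse 5 (0.0534) and without the 4 libraries with the most choroid plexus transcripts (0.0578). Me1 lost its call without repopulation mouse 2 (0.0567) or PLX3397 mouse 1 (0.0611) and without those 4 (0.0801). The call of Fads2 between repopulation and PLX3397 was lost without any 1 of 8 libraries, with adjusted p-values of 0.0502 to 0.137, and without the 3 libraries rich in choroid plexus transcripts (0.172). For Fads2 the single libraries were repopulation mouse 2, repopulation mouse 3, repopulation mouse 4, repopulation mouse 5, PLX3397 mouse 3, PLX3397 mouse 4, control mouse 4 and control mouse 5.

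**Figure D3:**
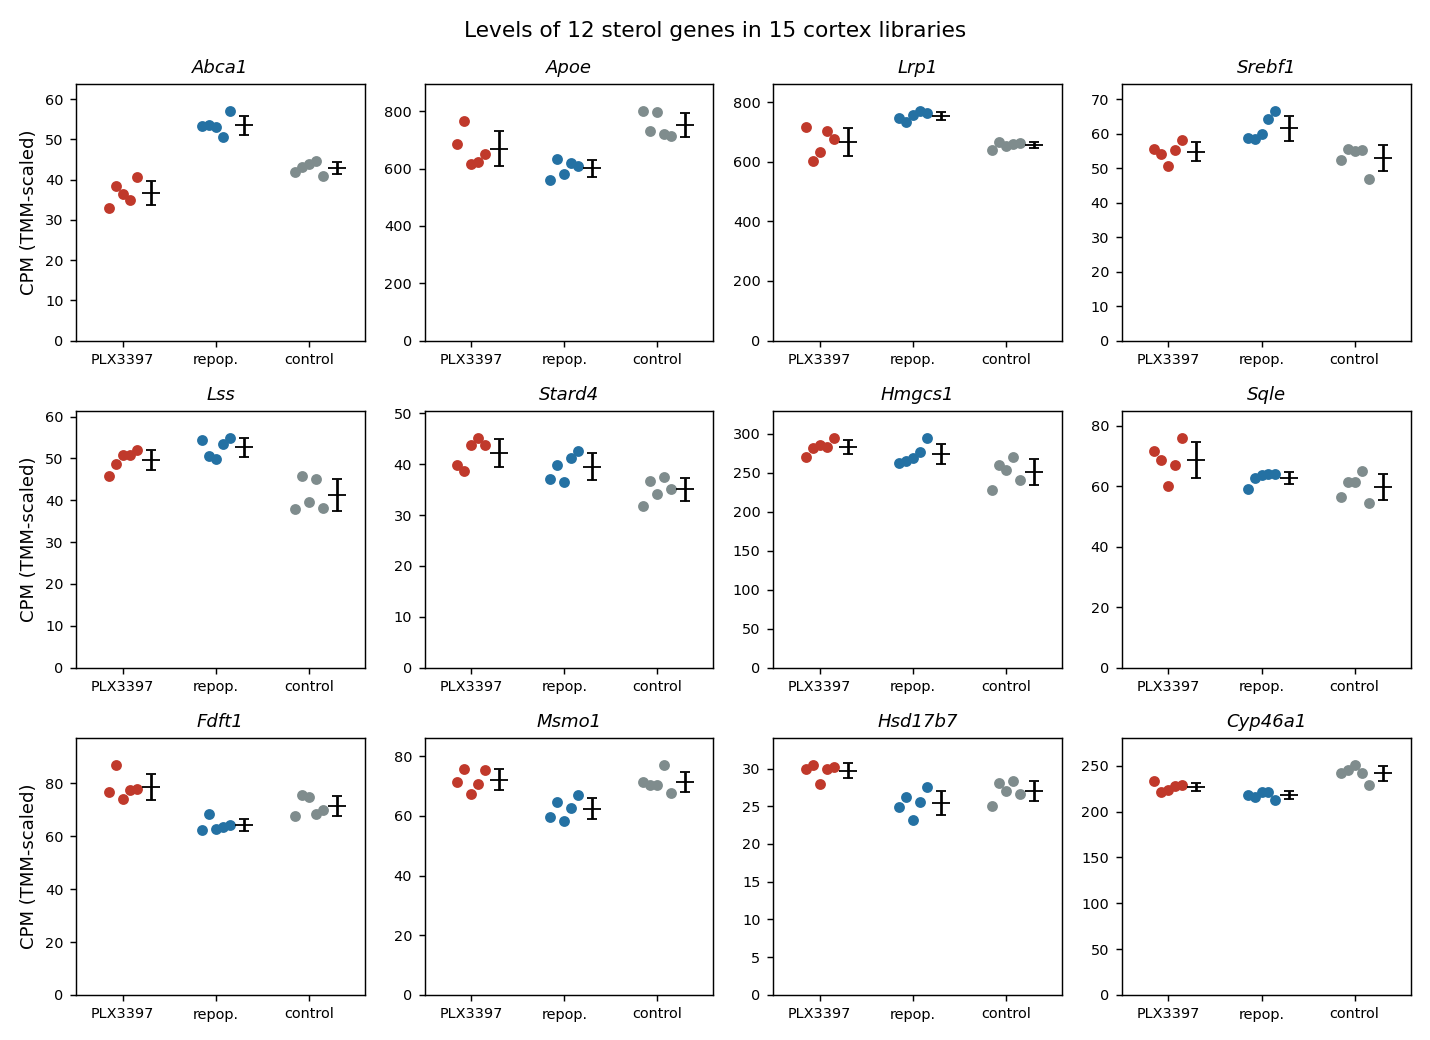
CPM after TMM scaling of 12 sterol genes in each of 15 cortex libraries (points), with the mean and SD of each group of 5 beside them, on axes that start at 0. In Abca1 the 5 PLX3397 libraries, the 5 repopulation libraries and the 5 control libraries occupy separate ranges, and in Fdft1 and Hsd17b7 the repopulation libraries lie below the PLX3397 libraries.

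Among the genes of LXRs, efflux and lipoproteins, Abca1 changed in all 3 comparisons and had the largest difference of any member. Abca1 encodes the transporter that loads cholesterol onto apolipoproteins. Abca1 had 33.0, 38.3, 36.5, 35 and 40.7 CPM on PLX3397, 53.3, 53.5, 53.0, 50.6 and 57.0 CPM after repopulation and 42.0, 43.0, 43.8, 44.6 and 40.9 CPM in control. The 3 groups did not overlap: each PLX3397 library lay below all controls and each repopulation library above all controls. The log2 fold change was -0.22 (SE 0.05, adjusted p = 0.00259) on PLX3397 and 0.32 (SE 0.05, adjusted p = 2.77e-05) after repopulation, both against control, and 0.54 (SE 0.05, adjusted p = 5.31e-09) between repopulation and PLX3397. All 3 calls held in every fit with 1 library left out, without the 3 and the 4 libraries with the most choroid plexus transcripts, and with length and GC trends taken out, at -0.31 (adjusted p = 0.000137), 0.21 (adjusted p = 0.00346) and 0.52 (adjusted p = 2.73e-08) in that order. Microglial markers moved beside it on PLX3397, where all 8 were lower than in control, while after repopulation 2 were higher and 1 lower than in control, and all 8 were higher than on PLX3397. Of 5 markers of border macrophages, all 5 were lower on PLX3397 than in control, 0 were called after repopulation against control, and all 5 were higher after repopulation than on PLX3397. The 5 endothelial markers, 3 of them lower on PLX3397, summed to 161 to 179 CPM on PLX3397, 189.8 to 198 CPM after repopulation and 184 to 199 CPM in control. The 6 oligodendrocyte precursor markers, 5 of them lower on PLX3397, had 1 higher and 0 lower after repopulation than in control. Their part in the Abca1 values was not tested. Abcg1, the partner exporter, had log2 fold changes of 0.03, 0.01 and -0.02 in the same order, with intervals of -0.05 to 0.11, -0.07 to 0.09 and -0.10 to 0.06.

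Apoe had 688, 766, 617, 623 and 653 CPM on PLX3397, 562, 634, 580.1, 619 and 611 CPM after repopulation and 801, 731, 797, 721 and 713 CPM in control. Apoe, made by astrocytes and by microglia, was lower on PLX3397 (-0.17, SE 0.05, adjusted p = 0.037) and after repopulation (-0.32, SE 0.05, adjusted p = 0.000164) than in control. After repopulation all 5 libraries lay below all 5 controls, while PLX3397 mouse 2 lay inside the control range. The call on PLX3397 was lost without control mouse 1 (adjusted p = 0.0958) or 3 (0.0926), PLX3397 mouse 1 (0.0594), 3 (0.0937), 4 (0.0909) or 5 (0.0934) or repopulation mouse 3 (0.0535), and with length and GC trends taken out (-0.06, adjusted p = 0.508). Between repopulation and PLX3397 the difference was -0.16 (adjusted p = 0.0559), and -0.16 (adjusted p = 0.0394) with those trends taken out. Apoe was also called lower there by DESeq2 (adjusted p = 0.0361) and in edgeR without the filter on low counts (9.35e-05). The same held in edgeR without control mouse 1 (0.0456) or 3 (0.0496), PLX3397 mouse 3 (0.0263) or 4 (0.0357) or repopulation mouse 2 (0.0438). Lrp1 had 717, 604, 634, 704 and 676 CPM on PLX3397, 748, 735, 759, 770.4 and 763 CPM after repopulation and 641, 666, 654, 660.3 and 662 CPM in control. Lrp1, a neuronal and glial receptor for apolipoprotein E, was higher after repopulation than in control (0.20, SE 0.04, adjusted p = 0.000218) and than on PLX3397 (0.18, SE 0.04, adjusted p = 0.0014), without overlap in either case, and on PLX3397 its difference from control was 0.02 (adjusted p = 0.751). The call against PLX3397 was lost without the 3 libraries rich in choroid plexus transcripts (0.11, adjusted p = 0.0553). Nr1h2 was not called on PLX3397 (-0.12, adjusted p = 0.0885) or after repopulation (-0.13, adjusted p = 0.0503). Nr1h3 averaged 2.50 ± 0.319 CPM on PLX3397, 2.35 ± 0.311 CPM after repopulation and 3.05 ± 0.636 CPM in control, with log2 fold changes of -0.29 (adjusted p = 0.196) and -0.38 (adjusted p = 0.0524) against control. Both receptor genes lay near the threshold after repopulation, and for Nr1h2, whose repopulation and control libraries did not overlap, DESeq2 gave an adjusted p of 0.0463, and edgeR without the 4 libraries with the most choroid plexus transcripts gave 0.0243.

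Of 12 further LXR targets and apolipoprotein genes, 10 were tested. On PLX3397 1 was called higher and 3 lower (8.19% and 8.35% of all tested genes). Mylip, an LXR target whose protein marks lipoprotein receptors for degradation, had 10.2, 10.8, 10.1, 10.3 and 11.3 CPM on PLX3397, 14, 14.7, 15.8, 14.4 and 14.7 CPM after repopulation and 15.7, 14.9, 16.2, 15.8 and 16.3 CPM in control. All 5 PLX3397 libraries lay below the other 10, at -0.59 (SE 0.06, adjusted p = 4.45e-08) against control, and after repopulation Mylip was higher than on PLX3397 (0.48, SE 0.06, adjusted p = 1.36e-06) and not called against control (-0.10, adjusted p = 0.184). The transporter gene Abca7 was lower on PLX3397 (-0.22, adjusted p = 0.00948), and Abca2, a transporter of oligodendrocytes, was higher (0.11, adjusted p = 0.0183). Pltp, a phospholipid transfer protein gene, averaged 38.9 ± 2.92 CPM on PLX3397, 50.8 ± 2.59 CPM after repopulation and 43.7 ± 3.56 CPM in control. It was lower on PLX3397 than in control (-0.17, adjusted p = 0.0433, and -0.06, adjusted p = 0.517, corrected) and higher after repopulation than in control (0.22, adjusted p = 0.00482) and than on PLX3397 (0.38, adjusted p = 2.34e-05). After repopulation 2 genes of this list were higher and 1 lower than in control (13.9% and 15.2% of all tested genes). Against PLX3397, 2 were higher and 2 lower (7.61% and 8.98%). The others called were Abca2 (0.12, adjusted p = 0.00608) and Apod, an apolipoprotein gene (-0.21, adjusted p = 0.00698), against control, and Clu, which encodes clusterin (-0.15, adjusted p = 0.00385), and Apod (-0.22, adjusted p = 0.01) against PLX3397. On PLX3397, the call of Pltp was lost without any 1 of 9 libraries, with adjusted p-values of 0.0522 to 0.139, and without the 3 libraries rich in choroid plexus transcripts (0.238). For Pltp the single libraries were repopulation mouse 1, PLX3397 mouse 1, PLX3397 mouse 2, PLX3397 mouse 3, PLX3397 mouse 5, control mouse 1, control mouse 2, control mouse 3 and control mouse 4. That of Abca2 was lost without PLX3397 mouse 1 (0.0555), PLX3397 mouse 5 (0.0541) or control mouse 1 (0.0571) and without the 4 libraries with the most choroid plexus transcripts (0.0943). Apod lost its call against PLX3397 without the 3 libraries named before (0.115).

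Cyp46a1 had 233, 221, 224, 228 and 229 CPM on PLX3397, 218, 216, 222, 222 and 213 CPM after repopulation and 242, 245, 250.4, 242 and 229 CPM in control. Cyp46a1 was lower after repopulation than in control (-0.15, SE 0.03, adjusted p = 0.000631), without overlap, and lower on PLX3397 (-0.09, SE 0.03, adjusted p = 0.0414) with overlap through control mouse 5. With length and GC trends taken out, the values were -0.07 (adjusted p = 0.0705) after repopulation and 0.02 (adjusted p = 0.752) on PLX3397, so that neither was called and the sign on PLX3397 changed. The call on PLX3397 was also lost without any 1 of 11 libraries, with adjusted p-values of 0.0515 to 0.116, and without the 3 libraries rich in choroid plexus transcripts (0.15). These 11 were control mice 1 (0.0683), 2 (0.088), 3 (0.116) and 4 (0.0666), PLX3397 mice 2 (0.0742), 3 (0.0847), 4 (0.0668) and 5 (0.0531), and repopulation mice 1 (0.0535), 2 (0.0515) and 4 (0.0541). Between repopulation and PLX3397, Cyp46a1 was not called (-0.06, adjusted p = 0.231). With length and GC trends taken out it was called lower after repopulation there (-0.09, adjusted p = 0.0336). Soat1, the acyltransferase that stores cholesterol as esters, averaged 37.9 ± 1.84 CPM on PLX3397, 38.7 ± 2.37 CPM after repopulation and 41.3 ± 1.93 CPM in control. It was not called against control, at -0.13 (adjusted p = 0.0826) on PLX3397 and -0.10 (adjusted p = 0.143) after repopulation. With length and GC trends taken out it was called lower in both, at -0.24 (adjusted p = 0.00212) on PLX3397 and -0.22 (adjusted p = 0.0025) after repopulation.

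Of 16 genes of lipoprotein uptake and sterol transport, on PLX3397 2 were called higher than in control and 2 lower. After repopulation 2 were higher and 3 lower than in control, and 2 were higher and 0 lower than on PLX3397. Of all tested genes, 8.19% were called higher and 8.35% lower, 13.9% and 15.2%, and 7.61% and 8.98% in turn. Npc2, the lysosomal cholesterol-binding protein gene, was lower on PLX3397 (-0.30, SE 0.06, adjusted p = 0.000718). So was Gramd1a, a sterol transfer protein gene (-0.13, adjusted p = 0.00675, and -0.07, adjusted p = 0.186, corrected). Vldlr, a lipoprotein receptor gene, was higher (0.18, adjusted p = 0.00873, and 0.06, adjusted p = 0.406, corrected). After repopulation Vldlr was higher than in control (0.27, SE 0.05, adjusted p = 0.000123), and Stard3 (-0.17, adjusted p = 0.0147, and -0.11, adjusted p = 0.111, corrected), a late endosomal sterol carrier gene, and Npc2 (-0.18, adjusted p = 0.0231) were lower. Gramd1a (0.11, adjusted p = 0.0145, and 0.06, adjusted p = 0.223, corrected) and Lrp8, a receptor gene for apolipoprotein E (0.14, adjusted p = 0.0478, and 0.12, adjusted p = 0.0732, corrected), were higher after repopulation than on PLX3397. Among 8 genes of SREBP processing and sterol-regulated degradation, 2 were higher and 0 lower on PLX3397 (8.19% and 8.35% of all tested genes). They were the protease genes Mbtps1 (0.12, adjusted p = 0.0225, and 0.06, adjusted p = 0.342, corrected) and Mbtps2 (0.16, adjusted p = 0.0241, and 0.03, adjusted p = 0.75, corrected), which release SREBPs at the Golgi. After repopulation Mbtps1 was higher than in control, at 0.16 (adjusted p = 0.0016, and 0.06, adjusted p = 0.225, corrected). The call of Npc2 after repopulation was lost without repopulation mouse 1 (0.0791), repopulation mouse 3 (0.0557), control mouse 1 (0.0581) or control mouse 3 (0.0663). That of Lrp8 was lost without any 1 of 11 libraries, with adjusted p-values of 0.0506 to 0.165, and without the 3 libraries rich in choroid plexus transcripts (0.347). For Lrp8 the single libraries were repopulation mouse 1, repopulation mouse 2, repopulation mouse 3, repopulation mouse 4, PLX3397 mouse 2, PLX3397 mouse 3, PLX3397 mouse 4, PLX3397 mouse 5, control mouse 2, control mouse 4 and control mouse 5. On PLX3397 Mbtps1 lost its call without PLX3397 mouse 5 (0.081) or control mouse 5 (0.0677) and without the 3 libraries rich in choroid plexus transcripts (0.113). Mbtps2 lost its own without PLX3397 mouse 4 (0.0774), PLX3397 mouse 5 (0.0677), control mouse 3 (0.0763) or control mouse 5 (0.0636) and without those 3 (0.0557). Gramd1a lost its call against PLX3397 without those 3 libraries (0.114), and that on PLX3397 without all 4 (0.0901).

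Of 5 sterol hydroxylation genes, 4 were tested, and Cyp27a1, a mitochondrial sterol hydroxylase gene, was lower on PLX3397 (-0.52, SE 0.11, adjusted p = 0.00193) and higher after repopulation than on PLX3397 (0.39, adjusted p = 0.0182). Of 9 genes of the non-sterol isoprenoid branch, 0 were called on PLX3397, where 8.19% of all genes were called higher and 8.35% lower. After repopulation 1 was higher and 3 were lower than in control (13.9% and 15.2% of all genes). The lower ones included Fnta, a prenyltransferase subunit gene (-0.23, SE 0.04, adjusted p = 0.000251), and Coq2, an enzyme gene of coenzyme Q synthesis (-0.16, adjusted p = 0.00519, and -0.09, adjusted p = 0.133, corrected). Pdss1, of the same synthesis, was higher (0.23, adjusted p = 0.0167). Fnta alone of this branch was called between repopulation and PLX3397 (-0.20, adjusted p = 0.0022), a call lost without the 4 libraries with the most choroid plexus transcripts (0.124). The call of Cyp27a1 against PLX3397 was lost without repopulation mouse 5 (0.0522), PLX3397 mouse 2 (0.0611) or PLX3397 mouse 4 (0.064), and that of Pdss1 without repopulation mouse 1 (0.0538) or control mouse 1 (0.0553).

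The differences lay partly along exon length, taken over all annotated exons of a gene. Among members, the Spearman correlation across genes between exon length and log2 fold change was 0.71 for repopulation against control, 0.65 for repopulation against PLX3397 and 0.23 for PLX3397 against control (n = 35 genes, which are not independent). Over the 17956 tested genes with an annotation it was 0.29, 0.19 and 0.19, and for GC content it was -0.19, 0.07 and -0.31. After repopulation the median log2 fold change against control was -0.09 for the 3486 tested genes of up to 2000 bp of exon and 0.14 for the 1476 genes above 10000 bp. The members of up to 2000 bp, Pmvk and Mvd, had a median of -0.27, and the members above 10000 bp, Lrp1, Fasn, Lss and Abca1, had a median of 0.26. With length and GC trends of each library taken out, the members' correlation with length was 0.51 for repopulation against control, 0.58 against PLX3397 and 0.08 for PLX3397 against control. Of the 35 members, the calls that ended under that correction, beside those of Apoe and Cyp46a1, were Hmgcs1 (0.09, adjusted p = 0.119), Mvd (-0.16, adjusted p = 0.0995) and Stard4 (0.11, adjusted p = 0.13) for repopulation against control. For repopulation against PLX3397 they were Acat2 (-0.17, adjusted p = 0.0732) and Srebf1 (0.11, adjusted p = 0.142). Calls of the further lists that ended are given beside those genes. All 4 enzyme calls on PLX3397 remained, with 4 higher and 0 lower. With the replicate block added to the correction, that of Sqle was lost (0.18, adjusted p = 0.0558) and 3 were left. The 7 lower enzymes between repopulation and PLX3397 became 6. Over all genes the correction moved the calls from 1505 higher and 1533 lower to 719 and 1290 on PLX3397, from 2548 and 2797 to 1553 and 2707 after repopulation, and from 1398 and 1649 to 1092 and 1632 between repopulation and PLX3397. The cause of the length trend was not tested.

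**Figure D4:**
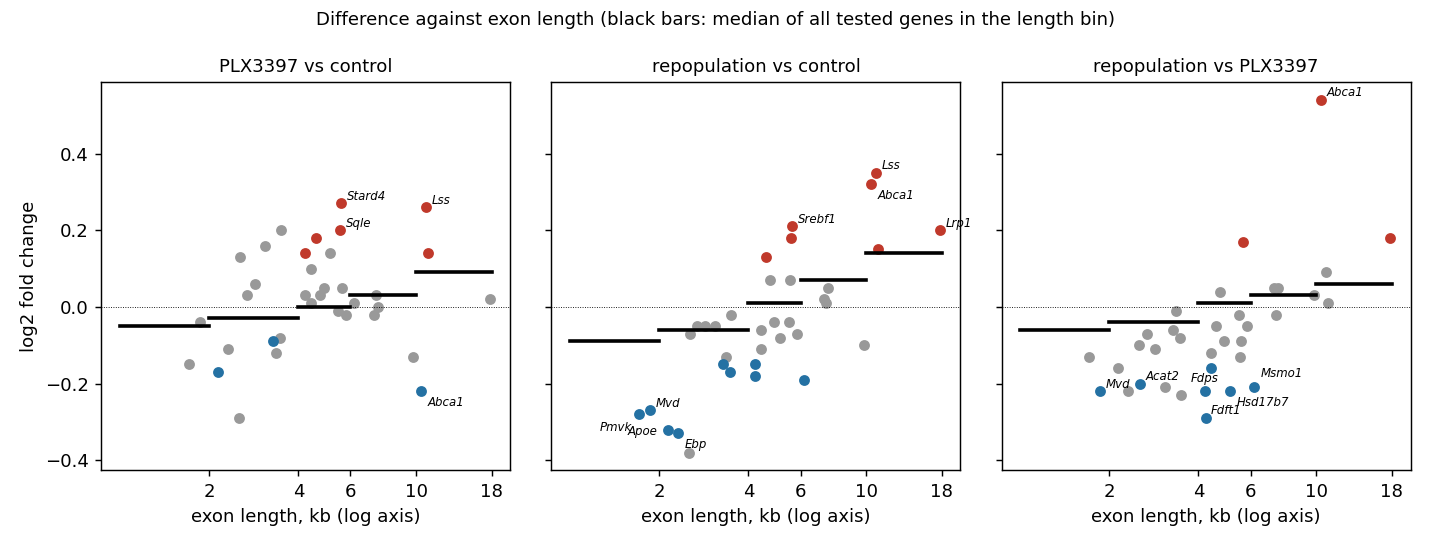
Log2 fold change of each of the 35 genes (points, red higher, blue lower, grey not called) against exon length in kb on a log axis, in the 3 comparisons. Black bars give the median of all tested genes in bins of exon length, which runs from -0.09 to 0.14 after repopulation against control.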

How the data were processed

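Bulk RNA of cortex was sequenced in 15 libraries, 5 per group. The values are raw counts of reads per gene symbol, deposited by the authors as 1 table, and all of its library columns were used. FastQC, MultiQC, STAR, DESeq2, DESeq and mm10 are named in the submitters' processing notes; no counting tool or annotation release is named there, and whether counting used strand is not given in the sources used here.

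Counts were scaled by TMM and filtered with filterByExpr. All 15 libraries entered 1 edgeR 4.0.16 quasi-likelihood fit (R 4.3.3), with Benjamini-Hochberg adjustment over 18369 genes. Standard errors came from the F statistic, and intervals cover 95%. Exon length and GC came from a GRCm38 annotation that matched 93.3% of symbols. Length and GC trends were fitted per library with splines of 5 degrees of freedom, as an alternative. DESeq2 1.42.0, other scaling, filters, fits and a replicate block were further alternatives. The scripts were tested on simulated data. Members and lists were chosen with earlier results of these data known. Members were all named, and from each further list up to 3 called genes with the smallest adjusted p per comparison, with others named where they complete a count.

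Library totals ran from 23413551 to 48617851 counts. Each library is 1 mouse by its labels, and replicates differed beyond counting noise, with a chi-square per degree of freedom of 2.53 to 9.95. Of the members, 12 of 35 share exon bases with another gene, and Scd2 and Idi1 have close paralogues, so their counts are uncertain. The results of 1 gene of the further lists are not reported here.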

Additional observations from a re-analysis of the deposited data

Results flagged for a closer look

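In 5 of 105 groups of 5 libraries, 1 library stood apart from the other 4 by a Dixon test, and chance gives about 1 in 20. Acat2 was at 31.6 CPM in PLX3397 mouse 2, against 24.7 to 26.6 CPM in the other PLX3397 mice. Mvd was at 16.6 CPM in repopulation mouse 5, against 13 to 13.6 CPM in the other repopulation mice. Hsd17b7 was at 27.9 CPM in PLX3397 mouse 3, against 30.0 to 30.4 CPM in the others of its group. Fdps was at 19.7 CPM in control mouse 2, against 16.1 to 17 CPM in the other controls. Nr1h2 was at 58.1 CPM in control mouse 5, against 51.2 to 53.0 CPM in the other controls.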

How the results depend on the processing

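With 1 library left out in turn, 23 of the 35 calls held in every fit and 12 were lost in at least 1. The count of members higher on PLX3397 than in control ran from 5 to 7 and the lower count from 1 to 4, with 1 lower without control mouse 3 or PLX3397 mouse 3, 4 or 5. In these fits 6.22% to 8.5% of all genes were called higher and 6.59% to 8.91% lower. After repopulation against control the counts ran from 5 to 7 higher and 7 to 11 lower. Of all genes, 11.2% to 13.8% were then called higher and 13.4% to 15.9% lower. Between repopulation and PLX3397 the counts of members ran from 2 to 3 higher and 3 to 9 lower, with 3 lower without repopulation mouse 1 and 4 without repopulation mouse 3. There 5.83% to 9.2% of all genes were called higher and 6.64% to 10.7% lower. The lower share was 7% without repopulation mouse 1 and 6.64% without repopulation mouse 3. Fitting only the PLX3397 and control libraries left 1 member lower on PLX3397, where 6.32% of all genes were lower. Without the 3 libraries rich in choroid plexus transcripts, 1 member was higher after repopulation than on PLX3397 (4.05% of all genes). Without the 4 with the most such transcripts 1 was higher and 2 were lower (3.07% and 1.36%). Cyp46a1 on PLX3397 changed sign to 0.02 with length and GC trends taken out, and to 0.02 with those trends taken out and the replicate block added together. The cause of these changes was not tested. DESeq2 gave 6 higher and 3 lower, 7 and 10, and 3 and 9 in the 3 comparisons. Its shares of all genes were 8.37% and 8.23%, 15.5% and 16.6%, and 7.93% and 9.58% in turn. The labels do not say that replicate numbers pair the mice. Deviations of same-numbered mice correlated between -0.164 and 0.136 over 15 pairs. Correlations over all genes cannot show whether mice were paired or handled together. With the replicate block the counts were 7 and 2, 7 and 9, and 3 and 8. The shares of all genes were then 7.49% and 7.93%, 13.1% and 14.5%, and 7.14% and 8.11%. The block added Insig1 on PLX3397 against control (adjusted p = 0.0369) and between repopulation and PLX3397 (0.00784), ended the Cyp46a1 call on PLX3397 (0.0642) and changed no other member's call. Low counts limit Nr1h3 most, with as few as 52 reads.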
